A study of Mus musculus with 8 samples.

Results

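The follicular regulatory T cells (TFR) of immunized peripheral lymph nodes (pLN) were compared with the 3 other CD4 T cell populations sorted from the same organ, naive T cells (Tnaive), follicular helper T cells (TFH) and regulatory T cells (Treg). The comparison comprised the 2 TFR arrays, one of d12 and one of d25 after immunization, of 8 arrays in all, with 1 array per cell type and day. Among 15762 genes tested, 5960 had a TFR level beyond the levels of all 3 other cell types at both days, 2620 above (16.6%) and 3340 below them (21.2%). All cells came from mice of the strain B6.Cg-Foxp3<tm1Mal>, in which Foxp3 expressing cells carry EGFP, of mixed gender and 8 to 14 weeks of age, immunized subcutaneously with KLH in alum. The RNA of each array, 25 ng before amplification, came from a pool of 8 to 15 mice, so that an array has no replicate at its day and the 2 arrays of a cell type differ by day. Tnaive were sorted as GFP- PD1lo GL7-, Treg as GFP+ PD1lo GL7-, TFH as GFP- PD1hi GL7+ and TFR as GFP+ PD1hi, irrespective of GL7. Tnaive and Treg came from the immunized lymph nodes too, and no cells of unimmunized mice entered the comparison.

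TFR are Foxp3 expressing cells that take up features of TFH, such as the chemokine receptor CXCR5 and the transcription factor BCL6, enter the B cell follicle and restrain the germinal center reaction. They are commonly derived from Treg and share with them the receptors and cytokines of suppression. For IL4 and IL21, cytokines by which TFH help B cells, the study cites earlier work that found none in peripheral TFR. In the study's own intracellular staining after stimulation, Foxp3 expressing cells of the periphery were nearly negative for IL4. The study reports both cytokines in TFR of Peyer's patches. Lymph node Treg in a resting state circulate through the organ under the control of CCR7, S1PR1 and KLF2, whereas effector Treg carry receptors for inflamed tissue.

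The label was checked against the defining transcripts. Foxp3, which drove the sorting reporter, measured 30876 at d12 and 30906 at d25 in TFR and 39528 and 38897 in Treg, but at most 390 on the 4 arrays of Foxp3-negative cells. These levels are normalized intensities, scaled so that the 75th percentile of an array is 1500 with a floor of 20. Pdcd1, coding for PD1 and likewise part of the gate, measured 67229 and 89002 in TFR, 171649 and 217537 in TFH and at most 4311 in Tnaive and Treg. Cxcr5 measured 29354 and 29726 in TFR and was thus between TFH (134832 and 172249) and Treg (4106 and 2836). Bcl6 showed the same order, with 20536 and 27770 in TFR and 63843 and 86439 in TFH. None of these 4 genes thus had its highest level in TFR, which shared Foxp3 with Treg and the other 3 with TFH.

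On each array, 18254 to 19867 of 39429 probes were well above background and none was saturated. All 4 arrays of d12 shared 1 slide. The d25 arrays of Tnaive and TFH shared the second slide and those of Treg and TFR the third, so that at d25 slide and cell type overlap and day and slide cannot be told apart. The summed level of 6 B cell markers was 7228 and 8166 in TFR and spanned 5483 to 15037 on the other arrays, with the highest value on the TFH array of d25. Of these markers, Pax5 stayed near background on all 8 arrays (20 to 27). The lists for germinal center B cells, antibody-secreting cells, CD8 T cells and natural killer cells gave TFR sums of 1033 and 1137, 2196 and 1912, 2257 and 2144, and 934 and 876, respectively, each exceeded by at least 1 array of another cell type. The 6 myeloid markers summed to 1622 and 3077 in TFR and to between 1521 and 3983 elsewhere. The 5 stromal and endothelial markers summed to 1094 and 1200 in TFR and to between 2117 and 3421 elsewhere. Of these markers Col1a1, a chain of type I collagen, was highest in TFR, with 317 and 219 against 220 and 60 in TFH, and was not well above background in Treg and Tnaive (at least 3.28-fold over the mean of the others, adjusted p = 0.0073). The part of such cells in the results was not tested. Fewer cells of a type and less RNA per cell cannot be told apart in such bulk samples.

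The 4 genes that mark this comparison, Penk, Nrn1, Ccr6 and Cxcr3, had their highest level on the TFR array at both days. Penk codes for proenkephalin, the precursor of the enkephalin opioid peptides (probe at chr4:4060724-4060783, build NCBI37). Its level was 79410 and 109695 in TFR at d12 and d25, against 5686 and 14552 in TFH, 4628 and 4849 in Treg and 129 and 211 in Tnaive. The groups did not overlap, and TFH and Treg in turn lay far above Tnaive. TFR exceeded the mean of the other 3 cell types by 5.60 ± 0.25 on the log2 scale (SE of the fit, limma adjusted p = 0.00036), and the nearest cell type, TFH, 10.3-fold (adjusted p = 0.0037).

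Nrn1 codes for neuritin, a GPI-anchored protein known from neurons (chr13:36817941-36818000). It measured 25126 and 33334 in TFR, 3093 and 3666 in Treg, 2391 and 3230 in TFH and 854 and 1005 in Tnaive. The lowest TFR array was thus well above the highest of the other 6. Its log2 difference to the mean of the others was 3.82 ± 0.08 (adjusted p = 0.00022), and TFR exceeded Treg 8.59-fold (adjusted p = 0.00039) and TFH 10.4-fold (adjusted p = 0.00043).

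Ccr6, the receptor for CCL20 (chr17:8449933-8449992), measured 28434 and 26282 in TFR, 6259 and 4001 in Treg, 5029 and 1993 in TFH and 763 and 809 in Tnaive. Cxcr3, the receptor for the interferon-induced chemokines CXCL9 and CXCL10 (chrX:98926920-98926979), measured 30249 and 29030 in TFR, 10735 and 8030 in TFH, 7458 and 8503 in Treg and 3421 and 3086 in Tnaive. For both receptors TFR stood apart, while TFH and Treg overlapped. The log2 differences to the mean of the others were 3.56 ± 0.29 for Ccr6 (adjusted p = 0.0016) and 2.25 ± 0.13 for Cxcr3 (adjusted p = 0.00062). Within the slide of d12 alone the differences of the 4 genes were 5.72 for Penk, 3.76 for Nrn1, 3.30 for Ccr6 and 2.22 for Cxcr3. Between TFR and Treg on the slide they shared at d25, the log2 differences were 4.50, 3.18, 2.72 and 1.77 in the same order.

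**Figure D1:**
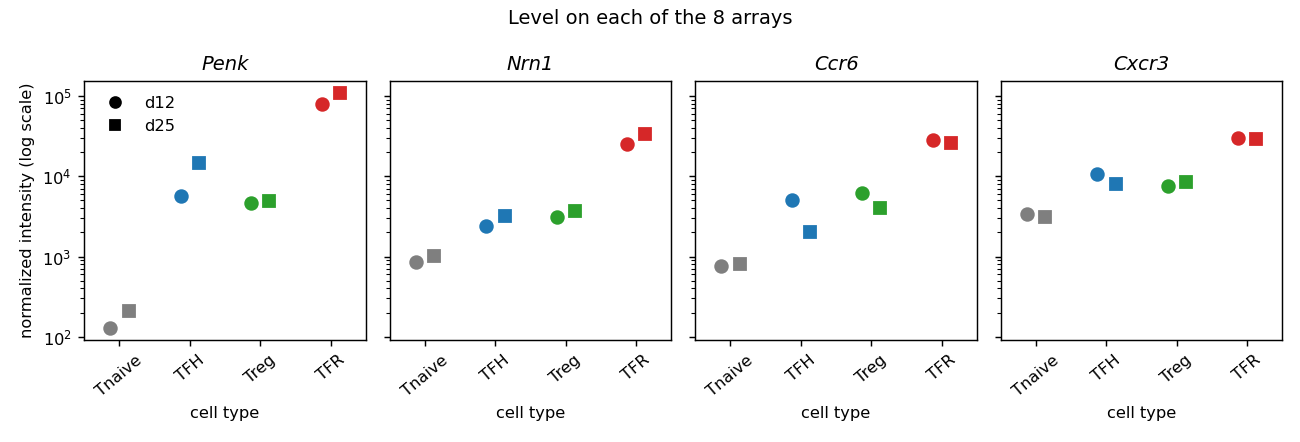
Normalized intensity (log axis) of Penk, Nrn1, Ccr6 and Cxcr3 on each array, by cell type, with circles for d12 and squares for d25; each point is 1 array. In each panel both TFR points lie above the other 6, by 10.3-fold over TFH for Penk and 3.19-fold over TFH for Cxcr3.

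The sequence before the transcription start is shown for the chemokine system members Ccr6 and Cxcr3 and for Cxcl10, a ligand of CXCR3 whose level was also highest in TFR, because receptor and ligand were high in the same cells. The windows hold the 250 bases upstream of each start listed by RefSeq (GRCm38.p6), 5′ to 3′ on the strand of the gene, with motif matches in capitals. They lie at chr17:8235793-8236042 (+) and chr17:8242276-8242525 (+) for Ccr6, at chrX:101734148-101734397 (-) for Cxcr3 and at chr5:92348890-92349139 (-) for Cxcl10.
Ccr6, first start: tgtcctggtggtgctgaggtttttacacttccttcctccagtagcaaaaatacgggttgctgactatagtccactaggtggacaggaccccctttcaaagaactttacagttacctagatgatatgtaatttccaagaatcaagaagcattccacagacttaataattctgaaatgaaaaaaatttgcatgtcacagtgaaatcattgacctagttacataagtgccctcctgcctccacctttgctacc
Ccr6, second start: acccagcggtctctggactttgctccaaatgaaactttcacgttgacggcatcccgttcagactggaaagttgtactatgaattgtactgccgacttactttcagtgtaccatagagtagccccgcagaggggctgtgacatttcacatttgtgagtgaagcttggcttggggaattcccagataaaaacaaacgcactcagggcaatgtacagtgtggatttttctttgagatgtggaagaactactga
Cxcr3: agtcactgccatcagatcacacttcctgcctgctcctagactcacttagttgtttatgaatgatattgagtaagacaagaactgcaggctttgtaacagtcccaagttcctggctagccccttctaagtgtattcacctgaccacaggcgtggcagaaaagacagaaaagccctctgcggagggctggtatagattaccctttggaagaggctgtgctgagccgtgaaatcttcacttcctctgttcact
Cxcl10: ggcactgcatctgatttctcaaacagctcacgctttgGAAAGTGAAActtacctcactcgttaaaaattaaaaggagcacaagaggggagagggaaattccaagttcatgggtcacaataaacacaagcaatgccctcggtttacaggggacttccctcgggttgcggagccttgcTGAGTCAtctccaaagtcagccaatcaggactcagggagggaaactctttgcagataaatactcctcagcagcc
Both strands were searched for 5 motifs, and their shares are given among the 32851 promoters of the same length in the table. These were TGANTCA for AP-1 (6.75% of promoters), AGGTGTGA for T-box factors (1.12%) and GTAAACA for forkhead factors (3.17%). Interferon regulatory factors (2.98%) and NF-kB (1.41%) were each searched with a set of letters not spelled out here. The NF-kB letters differ from the usual NF-kB consensus, which was not searched. Sites of that consensus can thus stand in the windows without capitals, and their absence is not claimed. With the letters searched, Cxcl10 held 1 interferon regulatory factor match beginning 213 bases and 1 AP-1 match beginning 74 bases before the start. The other 3 windows held no match to these letters. A match is a description of the sequence, and binding was not measured.

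Across all genes tested, 3070 were higher and 3659 lower in TFR than the mean of the other 3 cell types (limma, adjusted p below 0.05), that is 19.5% and 23.2%, or 42.7% together. In the single comparisons TFR was called higher than Tnaive for 23.3% and lower for 29.7% of the genes, higher than Treg for 18.7% and lower for 20.7%, and higher than TFH for 11.5% and lower for 10.5%. The stricter criterion, a call against each of the 3 cell types in the same direction, was met by 846 genes with higher (5.37%) and 545 with lower (3.46%) levels in TFR. Without the TFR array of d12 these numbers were 1301, 871, 284 and 85, and without that of d25 1250, 932, 276 and 108. The 846 and 545 calls also depended on the Treg arrays (546 and 179 without d12, 544 and 210 without d25). The 545 further decreased to 291 and 301 without the Tnaive array of d12 or d25 and to 284 without the TFH array of d25. With the slide in place of the day in the model, 408 and 147 genes were called against each, and 2157 and 2057 against the mean.

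By position alone, TFR was above the other 3 at both days for 16.6% and below them for 21.2% of the genes tested, and 2052 and 2445 of these were also called against the mean. As measured by d12 alone, TFR was above the others for 3606 genes, of which 72.7% had the same position at d25, where 22.5% of all genes did. For the 4734 genes with the lowest level in TFR at d12 the share at d25 was 70.6%, against 30.9% of all genes. The log2 difference between TFR and the mean of the others at d12 correlated with that at d25 with r = 0.907 across genes, which are not independent replicates. Just inside the limit was Eny2, whose smaller margin above the next cell type was 0.0009 on the log2 scale, and just outside 4933407O12Rik at 0. Below, Yy1 was inside with a margin of 0.00026 and 2010007E15Rik outside at 0.

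**Figure D2:**
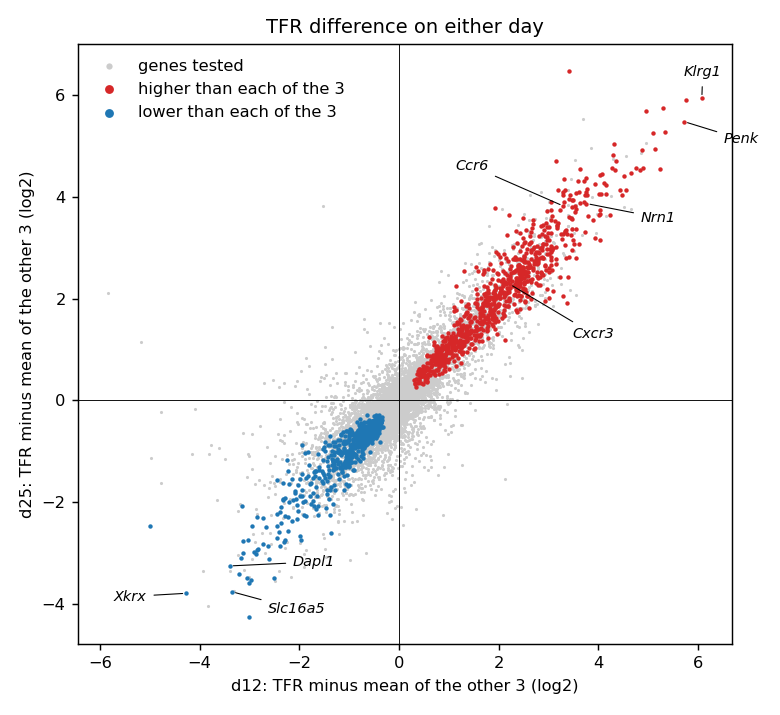
Log2 difference between TFR and the mean of Tnaive, TFH and Treg at d12 (horizontal) and d25 (vertical) for the 15762 genes tested, with the 846 called higher than each of the 3 in red and the 545 called lower in blue. The points follow the diagonal (r = 0.907 across genes), with Klrg1 and Penk at the upper end and Xkrx at the lower end among the genes labelled.

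Most genes beyond all 3 cell types were so by little, and the margins were unequal between the directions. The margin is the smaller, over d12 and d25, of the log2 distance between TFR and the nearest other cell type. It reached 1 for 437 genes above and 61 genes below, 2 for 108 above and 5 below, and 3 for 29 above and 1 below, the last being Xkrx. By the same count Tnaive were at least 1 above the others for 158 and below for 369 genes, TFH for 328 and 160, and Treg for 50 and 36. TFR thus had the highest number of genes with a margin of at least 1 above the others among the 4 cell types. At a margin of 2 TFH had 122 and TFR 108. The cell type nearest to TFR was TFH for 1612 and Treg for 765 of the 2620 genes with the highest level in TFR. Of the 846 genes called higher than each, both TFH and Treg lay above Tnaive at both days for 490 (57.9%), against 18.5% of all genes tested, whereas both lay below Tnaive for 31. Conversely, of the 545 called lower than each, both TFH and Treg lay below Tnaive for 318 (58.3%), against 24.8% of all genes tested.

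**Figure D3:**
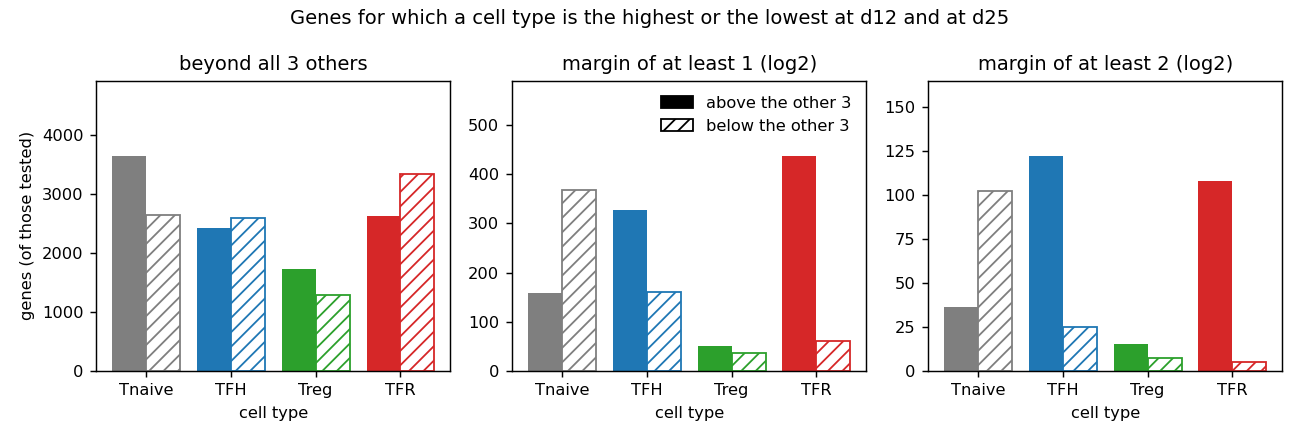
Number of genes for which a cell type is the highest (filled bars) or the lowest (hatched bars) of the 4 at d12 and at d25, at any margin, at a margin of at least 1 and at a margin of at least 2 on the log2 scale. TFR has 437 genes above and 61 below at a margin of 1, whereas Tnaive has 158 above and 369 below.

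For 126 of the 2620 genes with the highest level in TFR, none of the 6 other arrays was well above background, and most of the 14 named genes with the largest margins were of this kind. These passed the filter on low values through TFR alone. As the filter asks for both arrays of a cell type, so did genes with 1 such array in another type. Among the 14 these were Galnt14, Dscam and F13a1, so that all 14 passed through TFR alone. The 14 genes, and those with the largest margins below, were chosen by their levels, which are given as a description without a test. Fam81a (chr9:69937842-69937901) measured 933 and 1064 in TFR but 20 to 51 elsewhere, and TFR exceeded the mean of the others at least 16.4-fold. Fam69c, now named Dipk1c, measured 400 and 659 in TFR and was at the floor of 20 on the other 6 arrays (at least 9.16-fold). Such bounds set the TFR mean against the lowest signal that was well above background on each array, which was 31 to 82.

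Secreted proteins were among these genes. Vegfc, the growth factor of lymphatic endothelium (chr8:55271533-55271592), measured 1242 and 1130 in TFR, 78 and 23 in Treg and 20 on the Tnaive and TFH arrays (at least 20.7-fold). F13a1, the catalytic subunit of coagulation factor XIII, measured 784 and 1507 in TFR and 21 to 105 elsewhere. One of 2 arrays was well above background in each of the other cell types, and the log2 difference was 4.29 ± 0.37. Defb6, a beta-defensin gene, measured 236 and 271 against 20 on each other array (at least 4.51-fold).

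Genes known from the nervous system also appeared. Dscam, a cell adhesion molecule of the immunoglobulin family (chr16:96814646-96814705), measured 1505 and 1776 in TFR, 121 and 62 in Treg, 35 and 35 in Tnaive and 20 and 47 in TFH (at least 24.5-fold). Srgap3, a GTPase activating protein of the Slit-Robo pathway, measured 317 and 482 in TFR and 20 to 40 elsewhere (at least 6.68-fold), and Apba1, an adaptor that binds the amyloid precursor protein, 223 and 306 against 20 (at least 4.66-fold). No theme is claimed from these genes, which were selected by margin and not by function. Galnt14, which starts mucin-type O-glycosylation, measured 1160 and 1559 in TFR, and 34 to 92 elsewhere (at least 19.4-fold). Smarcd3, a subunit of the SWI/SNF chromatin remodeling complex, measured 802 and 1055 against 23 to 63 (at least 15.2-fold). Arhgap22, another GTPase activating protein, measured 328 and 519 against 20 to 33, Samd14 637 and 653 against 20 to 59, and Tdpoz4 242 and 398 against 20.

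In the other direction the largest margin was that of Xkrx, a member of the XK family of membrane proteins (chrX:130683614-130683673). It measured 56 and 86 in TFR, where 1 of 2 arrays was well above background, against 560 and 736 in Treg, 1034 and 993 in TFH and 2169 and 2310 in Tnaive, a log2 difference of -4.03 ± 0.15. Slc16a5, a monocarboxylate transporter family member (chr11:115335616-115335675), measured 363 and 205 in TFR, 2052 and 1941 in Treg, 2939 and 1287 in TFH and 8378 and 8600 in Tnaive (log2 difference of -3.55 ± 0.27). St8sia1, the sialyltransferase that makes ganglioside GD3, measured 1526 and 1548 in TFR, 7472 and 8861 in TFH, 7477 and 9161 in Treg and 14879 and 17624 in Tnaive (-2.74 ± 0.08). For these 3 genes all 6 other arrays were above both TFR arrays, with Tnaive the highest.

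Padi3, a peptidylarginine deiminase, was not well above background on either TFR array (48 and 47) and measured 234 to 561 on the others, which on average exceeded TFR at least 5.76-fold. Kcnh3, a voltage-gated potassium channel, measured 363 and 308 in TFR and 1385 to 2959 elsewhere (-2.54 ± 0.14). Hid1, which acts in the formation of secretory granules, measured 356 and 312 in TFR and 1138 to 7847 elsewhere (-2.94 ± 0.10). Raver2, an RNA-binding protein, measured 81 and 26 in TFR and 183 to 1805 elsewhere, and Fam101b, now named Rflnb, 407 and 363 against 1484 to 3600. Emid1, a protein with an EMI domain, measured 102 and 158 in TFR against 342 to 1231, and D13Ertd608e, a transcript without a mapped position, 22 and 38 against 76 to 829.

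**Figure D4:**
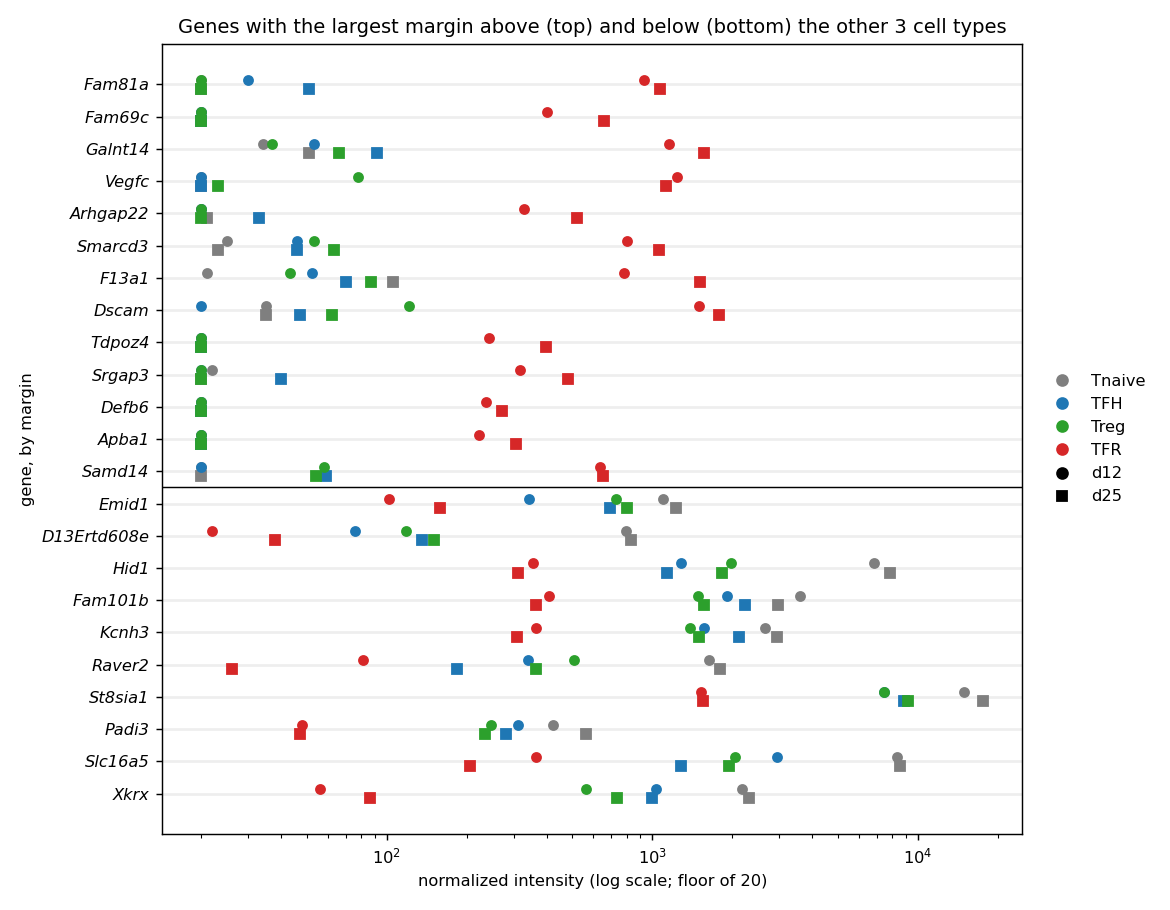
Normalized intensity (log axis, floor of 20) of 13 of the 14 genes with the largest margin above (upper block) and the 10 with the largest margin below (lower block) the other 3 cell types; each point is 1 array, colored by cell type, with circles for d12 and squares for d25. In the upper block the TFR points lie between 223 and 1776 while the other arrays are at 121 or below, and in the lower block the TFR points lie left of all others.

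Genes of suppression and of effector Treg were mostly highest in TFR, above the PD1lo Treg too. Of 29 such genes 27 were tested, 26 were called higher than the mean of the others and 21 were above all 3 cell types at both days, with none below. Their median log2 difference was 2.45, against -0.07 over all genes tested, of which 19.5% were called higher and 16.6% lay above. As Tnaive and TFH were sorted for absence of the Foxp3 reporter, the calls of Treg genes against the mean are bound to the sort. Treg were sorted as PD1lo, and the study describes Treg with intermediate PD1 as activated cells, which its gates avoided. Activation and follicular state thus cannot be told apart in the comparison of TFR with Treg. Klrg1, an inhibitory receptor of terminally differentiated effector Treg, measured 6798 and 8719 in TFR, 1667 and 1259 in Treg, 29 and 69 in TFH and 21 and 33 in Tnaive. TFR thus exceeded Treg 5.31-fold (adjusted p = 0.01) and Tnaive, which was not above background, at least 108-fold. Ebi3, a subunit of the cytokines IL27 and IL35, measured 25591 and 25159 in TFR, 5860 and 4234 in Treg, 3589 and 3399 in TFH and 315 and 246 in Tnaive (log2 difference of 3.91 ± 0.11, adjusted p = 0.00022). Il10 measured 2104 and 4656 in TFR, 476 and 205 in Treg, 442 and 86 in TFH and 20 and 58 in Tnaive, and TFR exceeded the mean of the others at least 19.2-fold (adjusted p = 0.013). Its differences from TFH and Treg did not pass the test (adjusted p = 0.055 and 0.059), and the call against the mean was lost without either TFR array and with the slide in place of the day.

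Among the receptors of this list, Havcr2, coding for the inhibitory receptor TIM3, measured 617 and 372 in TFR, 88 and 67 in Treg and 20 on the arrays of Tnaive and TFH (at least 8.02-fold over the mean). Havcr2 passed the filter on low values through TFR alone and is described without a test. Tnfrsf4, coding for OX40, measured 181156 and 186310 in TFR, 88369 and 90904 in Treg, 51249 and 39920 in TFH and 8423 and 7981 in Tnaive. Tnfrsf1b, coding for TNF receptor 2, measured 12400 and 16018 in TFR and 5146 and 5559 in Treg, and was 1178 to 1618 on the TFH and Tnaive arrays. Both were called against each cell type, TFR exceeding Treg 2.05-fold and 2.64-fold (adjusted p = 0.0051 and 0.0021). Ctla4 measured 9805 and 13853 in TFR, 7374 and 9096 in Treg, 6485 and 8128 in TFH and 538 and 655 in Tnaive, a log2 difference from Treg of 0.51 (adjusted p = 0.013). Prdm1, coding for BLIMP1, measured 2650 and 4080 in TFR and at most 1409 elsewhere (1.86 ± 0.17, adjusted p = 0.002). Lrrc32, Entpd1 and Itgae were called higher than the mean but were not highest in TFR at both days. Lag3 and Icos likewise were called but highest in TFH on at least 1 day, and Tnfrsf9 was not called (0.14, adjusted p = 0.40). Of the 27 genes, 12 were called against each cell type. This number was 7 without the Treg array and 6 without the TFR array of d25, and 8 with the slide in place of the day.

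The core Treg genes were divided. All 14 were called higher in TFR than the mean of the others (19.5% of all genes), and 7 were above all 3 at both days (16.6% of all genes). TFR were sorted by the Foxp3 reporter, and Tnaive and TFH for its absence. The calls against the mean are thus bound to the sort, and the comparison with Treg, of PD1hi with PD1lo cells, is given instead. Ikzf2, coding for the transcription factor HELIOS, measured 19642 and 24128 in TFR, 8916 and 9917 in Treg, 9409 and 9673 in TFH and 97 and 166 in Tnaive. Nrp1, coding for neuropilin 1, measured 2741 and 2715 in TFR, 1367 and 1274 in Treg and 1281 and 1158 in TFH, and was not above background in Tnaive (64 and 92). Both exceeded Treg (log2 differences of 1.21 and 1.05, adjusted p = 0.0099 and 0.013). Il2ra, the alpha chain of the IL2 receptor, in contrast measured 12789 and 17384 in TFR and 22127 and 24181 in Treg, a log2 difference of -0.63 (adjusted p = 0.012). Foxp3, Lrrc32 and Cish were also lower in TFR than in Treg at both days, but these differences did not pass the test (adjusted p = 0.15, 0.26 and 0.31). Socs2, a target of STAT5 signaling like Cish, measured 2781 and 3666 in TFR against 8948 and 8997 in Treg (adjusted p = 0.011). Ikzf4 and Izumo1r were above Treg on both arrays, but their differences from Treg did not pass the test (adjusted p = 0.15 and 0.28). Against each cell type 5 core genes were called, which became 1 without either Treg array, 2 and 0 without the TFR array of d12 or d25, 3 without the TFH array of d25 and 2 with the slide in place of the day.

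Of 20 genes of the follicular helper program, 17 were called higher in TFR than the mean of the others (19.5% of all genes), with a median log2 difference of 1.32, but only Batf had its highest level in TFR at both days. As Tnaive and Treg were sorted as PD1lo and TFR as PD1hi, these calls are bound to the sort. Only 8 were called when the TFR array of d25 was left out. Batf, an AP-1 transcription factor, measured 50672 and 53399 in TFR and 43039 and 42203 in TFH, a difference that did not pass the test (0.29, adjusted p = 0.12), and 10372 to 14753 in Tnaive and Treg. The helper cytokines Il21 and Il4 measured 1551 and 2307, and 11092 and 11092 in TFR, respectively, against 20301 and 22346, and 53188 and 58215 in TFH. In Treg Il21 was at the floor of 20 and Il4 measured 581 and 235. These are RNA levels, a measure unlike the study's staining for IL4 protein. Most members thus lay between TFH on the one side and Treg and Tnaive on the other. Cd40lg, the ligand by which helper cells engage B cells, was the member called lower in TFR (adjusted p = 0.0075), with 21 and 33 in TFR and 126 and 170 in TFH. It was not well above background on the TFR and Treg arrays, and no fold is given.

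Chemokine receptors and chemokines were counted apart. Of 16 receptors tested, 8 were called higher and 3 lower than the mean of the others, and TFR was above all 3 cell types for 6 and below for 1. Over all genes, 19.5% were called higher and 23.2% lower, and 16.6% lay above and 21.2% below, so that the lower calls are not read as a result about the family. Besides Ccr6 and Cxcr3 these 6 were Ccr8, Ccrl2, Ccr4 and Cx3cr1. Ccr8, a receptor of tissue Treg, measured 1303 and 1531 in TFR, 257 and 260 in Treg, 141 and 169 in TFH and 118 and 114 in Tnaive (log2 difference of 3.08 ± 0.09, adjusted p = 0.00022). Ccrl2, which binds chemerin without signaling, measured 1437 and 1944 in TFR, 556 and 600 in Treg and 136 to 198 in TFH and Tnaive (2.72 ± 0.09, adjusted p = 0.00024). Ccr4 measured 1890 and 1913 in TFR and at most 1151 elsewhere (1.47 ± 0.08, adjusted p = 0.00061). Cx3cr1, which passed the filter on low values through TFR alone, was not called.

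The receptor below all 3 cell types was Ccr9, which guides T cells to the small intestine. It measured 52 and 97 in TFR, with 1 of 2 arrays well above background, 122 and 226 in TFH, 453 and 673 in Tnaive and 1149 and 1008 in Treg (-2.70 ± 0.24, adjusted p = 0.0019). Ccr7, the receptor for lymph node entry, was called lower than the mean, but TFR with 20163 and 18533 remained above TFH with 4671 and 7209. Without the TFR array of d25, 1 receptor in place of 3 was called lower, and 3 in place of 5 were called higher than each cell type.

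Of 12 chemokines tested, 4 were called higher and none lower, and TFR was above all 3 cell types for the same 4, Cxcl10, Xcl1, Ccl1 and Ccl5. Beside them, 19.5% of all genes were called higher and 23.2% lower, and 16.6% lay above. With so few chemokines the counts are not read as a result about the family. Cxcl10 measured 5848 and 7165 in TFR, 902 and 1202 in TFH, 741 and 669 in Treg and 134 and 137 in Tnaive (3.80 ± 0.13, adjusted p = 0.00024). Xcl1, the ligand of the dendritic cell receptor XCR1, measured 7003 and 6684 in TFR, 831 and 2611 in TFH, 591 and 541 in Tnaive and 385 and 353 in Treg (3.34 ± 0.40, adjusted p = 0.0043). Ccl1, the ligand of CCR8, measured 6121 and 5692 in TFR, 1943 and 2050 in TFH and at most 167 in Treg and Tnaive. Its difference from TFH did not pass the test (adjusted p = 0.16). Ccl5 measured 23193 and 32202 in TFR but varied within the other types, with 4366 and 14887 in TFH, and its log2 difference of 1.77 ± 0.46 passed the test (adjusted p = 0.035). This call was lost without any 1 of the TFR or Treg arrays, without the Tnaive array of d25 and with the slide in place of the day, and that of Xcl1 without the TFR array of d12 (adjusted p = 0.058). The chemokine calls became 2 without the TFR array of d12.

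Genes of type 1 and type 17 helper cells were in part highest in TFR. For both lists the shares of all genes were 19.5% called higher and 23.2% lower, with 16.6% above and 21.2% below all 3 cell types. Cxcr3 belongs to the type 1 and Ccr6 to the type 17 list, and both were chosen as marks of this comparison. Il18rap and Il23r, counted in these lists, passed the filter on low values through TFR alone. The counts are thus in part bound to these choices. Of 10 type 1 genes tested, 9 were called higher and 7 were above all 3 cell types, and 5 were called without either TFR array. Of the 4 called against each cell type 2 were so without either TFR array and with the slide in place of the day. Tbx21, coding for TBET, measured 2006 and 1732 in TFR and 475 to 773 on the other 6 arrays (1.64 ± 0.17, adjusted p = 0.0027). Il18r1, the receptor of IL18, measured 9710 and 14060 in TFR, 3759 and 4782 in Treg, 3115 and 3479 in Tnaive and 503 and 840 in TFH (2.49 ± 0.13, adjusted p = 0.0005). Ifng measured 2369 and 3297 in TFR and 1079 and 1788 in TFH, which did not differ by the test (adjusted p = 0.14), and 112 to 266 in Treg and Tnaive.

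Of 9 type 17 genes tested, 6 were called higher and 1 lower, 5 were above and 2 below all 3 cell types, and 3 were called higher without the TFR array of d12. The lower call, that of Il17re, was lost without any 1 of 5 arrays, those of Tnaive and TFR at both days and that of Treg at d25. With 23.2% of all genes called lower and 21.2% below, the lower counts are no result about this list. Ahr, coding for the aryl hydrocarbon receptor, measured 4956 and 8322 in TFR, 1964 and 2239 in Treg, 853 and 661 in TFH and 271 and 248 in Tnaive (3.11 ± 0.23, adjusted p = 0.0012). Rora measured 3192 and 3769 in TFR against 2351 and 2256 in TFH and at most 1579 elsewhere (1.62 ± 0.19, adjusted p = 0.004). Il17a and Il17f were not well above background on any array.

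Cell cycle genes had their highest level in TFR almost throughout. Of 23 genes 21 were tested, 20 were called higher than the mean of the others and 19 were above all 3 cell types at both days, with a median log2 difference of 1.91. Among all genes tested 19.5% were called higher and 16.6% lay above. Mki67, a marker of cycling cells, measured 6160 and 6045 in TFR, 3408 and 2290 in TFH, 921 and 980 in Treg and 511 and 384 in Tnaive (2.53 ± 0.15, adjusted p = 0.00073). Ccna2, coding for cyclin A2, measured 7608 and 6997 in TFR, 2968 and 2473 in TFH, 1210 and 1149 in Treg and 538 and 451 in Tnaive (2.65 ± 0.07, adjusted p = 0.00022). Birc5, coding for survivin, measured 22742 and 12935 in TFR, 8580 and 5640 in TFH, 3123 and 2408 in Treg and 1154 and 840 in Tnaive. Each showed the order of TFR, TFH, Treg and Tnaive on both days. The replication helicase genes Mcm3 and Mcm5 were called higher too (1.27 and 1.33, adjusted p = 0.003 and 0.00077), whereas Mcm4 and Pcna showed small differences (0.46 and 0.59, adjusted p = 0.0086 and 0.0039). Ccne1 was called but highest in TFH, and Tyms was not called (0.38, adjusted p = 0.11). Against each cell type 14 were called, which became 4 and 6 without the TFR array of d12 or d25, 9 without the TFH array of d25 and 7 with the slide in place of the day.

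**Figure D5:**
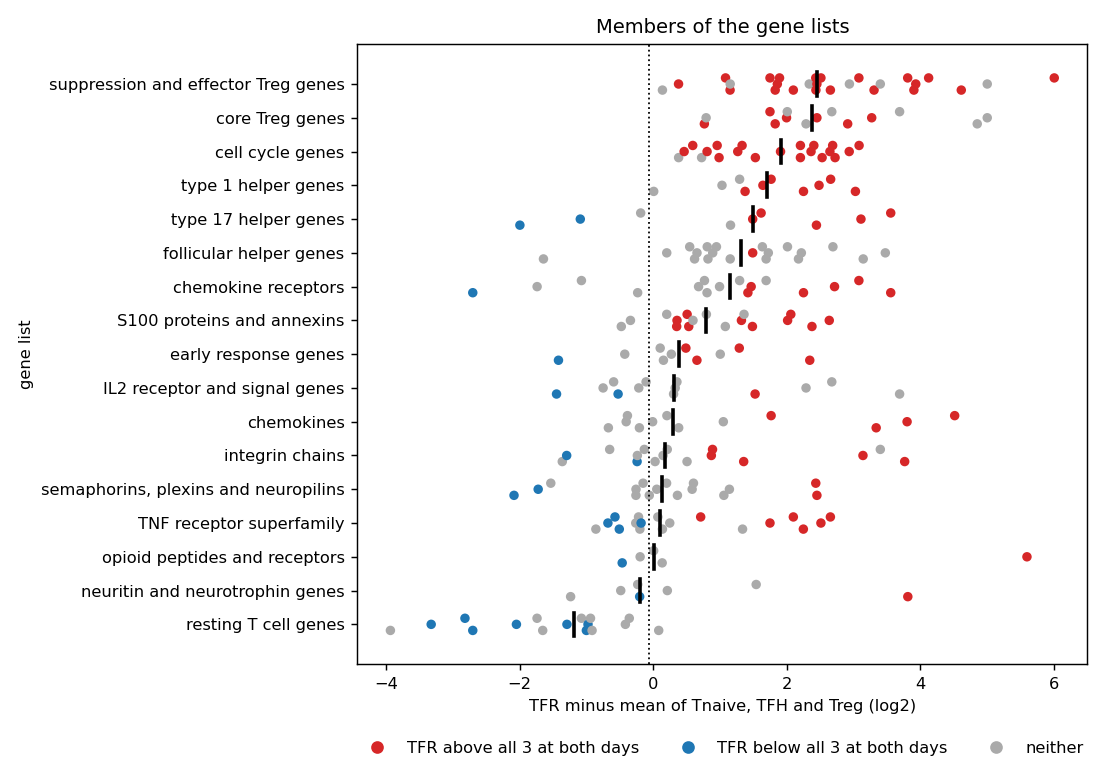
Log2 difference between TFR and the mean of Tnaive, TFH and Treg for the tested members of 17 gene lists, with the list median as a black bar and the median of all genes tested as a dotted line; red points are above and blue points below all 3 other cell types at both days. The medians run from 2.45 for the genes of suppression and effector Treg to -1.18 for the genes of resting T cells.

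Genes of resting T cells had the opposite direction. Of 16 genes, 14 were called lower in TFR than the mean of the others, 7 lay below all 3 cell types and none above, and the median was -1.18. Among all genes tested 23.2% were called lower and 21.2% lay below. Dapl1 measured 978 and 1026 in TFR, 2017 and 2153 in TFH, 9225 and 8062 in Treg and 58685 and 53990 in Tnaive (-3.33 ± 0.09, adjusted p = 0.00022). Lef1, a transcription factor of the WNT pathway, measured 1322 and 1077 in TFR, 2144 and 1888 in TFH, 5720 and 4107 in Treg and 13372 and 11359 in Tnaive (-2.05 ± 0.08, adjusted p = 0.00032). Its relative Tcf7, coding for TCF1, measured 33182 and 36891 in TFR, 43769 and 48219 in Treg, 75297 and 96555 in TFH and 81059 and 94570 in Tnaive (adjusted p = 0.0012). Lef1 and Tcf7 were thus both lowest in TFR, but for Tcf7 the levels of TFH and Tnaive overlapped. Klf3 measured 7196 and 9868 in TFR and 14503 to 25347 elsewhere (-1.29 ± 0.13, adjusted p = 0.0025). Klf2, S1pr1 and Bach2 were called lower than the mean but were lowest in TFH, and Il7r and Id3 were not called (adjusted p = 0.25 and 0.60).

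S100 proteins and annexins, which bind calcium, were called higher in TFR for 14 of 17 genes tested (19.5% of all genes) and above all 3 cell types for 10 (16.6% of all genes), with none below. Without either TFR array 8 were called, and of 5 called against each cell type 2, as with the slide in place of the day. S100a4 measured 185644 and 129277 in TFR, 95192 and 49853 in TFH, 52872 and 41265 in Treg and 18785 and 16312 in Tnaive (log2 difference of 2.01 ± 0.15, adjusted p = 0.0013). S100a6 showed the same order, with 101720 and 63455 in TFR against 52872 and 24822 in TFH. Anxa2, a partner of S100a10, measured 44833 and 40868 in TFR, 24607 and 20993 in TFH and 3060 to 7405 in Treg and Tnaive (2.38 ± 0.07, adjusted p = 0.00023). Anxa4 measured 3040 and 3830 in TFR and at most 1205 elsewhere (2.64 ± 0.08, adjusted p = 0.00022). Anxa1 and Anxa5 were not called (-0.34 and 0.20).

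Of 18 genes of the TNF receptor superfamily tested, 7 were called higher and 3 lower than the mean (19.5% and 23.2% of all genes), and 6 lay above and 4 below all 3 cell types (16.6% and 21.2% of all genes). The counts in the lower direction are thus no result about the family. Besides Tnfrsf4 and Tnfrsf1b, the receptor genes above included Tnfrsf18, coding for GITR, with 84352 and 90196 in TFR and 48905 and 50372 in Treg (1.75 ± 0.09, adjusted p = 0.00046). Cd40, usually a receptor of B cells and other antigen-presenting cells, measured 337 and 390 in TFR, 75 and 142 in TFH, and was not above background in Treg and Tnaive (at least 4.32-fold over the mean, adjusted p = 0.0012). Of 5 B cell markers tested, 3 lay below and 0 above all 3 cell types. The part of B cells in the Cd40 level was not tested. The members called lower were Tnfrsf12a (831 and 866 against 1091 to 1306), Tnfrsf14 (313 and 299 against 407 to 632) and Tnfrsf1a (2696 and 2547 against 2785 to 4856), with log2 differences of -0.51, -0.68 and -0.57 (adjusted p = 0.0043, 0.0084 and 0.013). Tnfrsf1a and Tnfrsf1b, the 2 receptors for TNF, thus differed from the mean in opposite directions. Without the TFR array of d25, 4 were called higher and 0 lower, without that of d12 1 was called lower, and without the TFH array of d12 5.

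Among 16 integrin chains tested, 7 were called higher and 4 lower, and 5 lay above and 2 below all 3 cell types. Of all genes 19.5% were called higher and 23.2% lower, and 16.6% lay above and 21.2% below. The counts in the lower direction are not read as a result about integrins. Itgb1 measured 8500 and 10552 in TFR and 1867 to 6020 elsewhere (1.36 ± 0.10, adjusted p = 0.0013). Itga11, which pairs with ITGB1 as a collagen receptor, measured 160 and 256 in TFR and was not above background on any other array (at least 3.39-fold). It passed the filter on low values through TFR alone and is described without a test. Itgb5 measured 1385 and 1788 in TFR and 791 and 623 in TFH, a difference that did not pass the test (adjusted p = 0.18), and 20 to 84 in Treg and Tnaive. Without the TFR array of d25 4 integrins were called higher and 1 lower, and 1 was called lower without that of d12.

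Semaphorins, plexins and neuropilins gave 4 calls in either direction among 16 genes tested, with 2 above and 2 below all 3 cell types. These shares are close to the 19.5% and 23.2% of all genes and are no result about the family. The neuropilins were opposed, since Nrp1 was highest and Nrp2 lowest in TFR. Nrp2 measured 48 and 95 in TFR against 126 and 136 in TFH, 353 and 471 in Treg and 441 and 438 in Tnaive (-2.08 ± 0.21, adjusted p = 0.0027). Plxnb2 measured 2017 and 2521 in TFR and 1287 and 1527 in TFH (adjusted p = 0.12 between them) and 189 to 334 elsewhere. Sema7a was below the others within each day, with 207 against 228 to 1461 at d12 and 84 against 164 to 895 at d25, and its call was lost without the TFR array of d25 and with the slide in place of the day. The 4 lower calls became 2 without the TFR array of d25 and with the slide in place of the day.

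Of 13 genes of IL2 reception and signaling, 4 were called higher and 3 lower than the mean, beside 19.5% and 23.2% of all genes, and the list is described by its members. Only Il2rb, the beta chain shared with the IL15 receptor, lay above all others, with 49688 and 57329 in TFR and 49562 and 42923 in Treg, a difference that did not pass the test (adjusted p = 0.24). Jak1 and Bcl2 lay below, Bcl2 with 1259 and 1365 in TFR, 1265 and 1887 in TFH, 4408 and 4381 in Tnaive and 6628 and 6836 in Treg (-1.45 ± 0.14, adjusted p = 0.0022). Without the TFH array of d12, 7 were called higher, and without either TFR array 1 was called lower.

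Of 10 early response genes tested, 5 were called higher and 2 lower, beside 19.5% and 23.2% of all genes. Dusp1, Nr4a1, Nr4a2 and Junb lay above all 3 cell types, Nr4a2 with 585 and 902 in TFR, 167 and 488 in TFH and 152 and 141 in Treg, and not well above background in Tnaive with 57 and 85 (at least 4.79-fold over the mean, adjusted p = 0.0056), while Jun lay below with 365 and 202 in TFR against 396 and 279 in TFH and at least 792 in Treg and Tnaive. Fos and Fosb were not called (0.11 and 0.27). Without the TFR array of d12 the calls were 2 and 0, without that of d25 3 and 0, and with the slide in place of the day 5 and 1.

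Penk and Nrn1 were each the only tested member of their list above all 3 cell types. Of 5 genes of opioid peptides and receptors tested, Penk was the only one called. With 19.5% of all genes called higher and 23.2% lower, these counts are no result about the list. Oprl1, the nociceptin receptor, lay below all 3 cell types without a call (-0.46, adjusted p = 0.22). Among 7 genes of neuritin and the neurotrophins, Nrn1 was the only one above all 3, where 16.6% of all genes lay above and 23.2% were called lower. Ntf5 measured 570 and 621 in TFR but 1195 and 1346 in TFH, and the receptor Ntrk3 measured 369 and 526 in TFR against 3539 and 5104 in TFH. The neuritin relative Nrn1l was not called (0.21, adjusted p = 0.69). The 3 genes called lower in this list, Ntrk2, Ntrk3 and Nrtn, became 1 without any 1 of 5 arrays, those of Tnaive and TFR at both days and that of Treg at d25.

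The TFR difference was also compared between d12 and d25. With a term for TFR at d25 added to the limma model, none of the 15762 genes had an adjusted p below 0.05, and 488 had an unadjusted p below 0.05, with 2 residual degrees of freedom. Without the filter on dim probes, 410 genes were called.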

How the data were processed

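Total RNA of sorted cells was fluorescently labeled and hybridized to one-color Agilent arrays with 4 spots for each of 39429 probes, scanned with Agilent Feature Extraction 10.7.3.1 per the submitters' processing notes. The authors averaged the spots, quantile normalized the processed signal, scaled the 75th percentile to 1500 and set a floor of 20, and the deposited table holds these intensities on a linear scale. The deposited scanner files hold the processed signal intensity of each spot, its detection above background and the probe's gene and NCBI37 position. Values recomputed from the spots correlated with the table at r = 0.999 or above on each array.

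Intensities were taken as log2, each gene by its probe with the highest mean over the 8 arrays. A gene entered the test when 1 or more cell types had its probe detected over background at d12 as well as d25, which left 15762 of 29924. A linear model with cell type and day was fitted with limma 3.58.1 in R 4.3.3 (3 residual degrees of freedom), and p-values were adjusted across these genes after Benjamini and Hochberg, with 0.05 as threshold. The study's methods give other numbers of sorted fractions and pooled mice per day than the labels, which were followed. As each cell type has 1 array per day, the spread is that between days after a common day effect, and the number of arrays limits the precision. On simulated data, 92% of genes raised by 2 and 64% of those raised by 1 on the log2 scale in TFR were called, and 78% of those lowered by 2 or by 1. In that simulation only a small part of the genes was shifted, without other differences between cell types or days. The rates thus do not give the power of the test in these data. A fold against cells without an array above background is given as a bound.

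Genes are named in the text if they are Penk, Nrn1, Ccr6 or Cxcr3, if they have the 14 largest margins above or the 10 largest below the other cell types, or if they belong to the gene lists. RIKEN clones and predicted genes were not named by margin, and some genes that the rule or the lists include are not reported here. The genes, lists and markers were chosen with earlier results of these data known, so the tests are no independent evidence for them. Alternatives covered normalization, background, probe and filter choices, the test, the slide and each array left out.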

Additional observations from a re-analysis of the deposited data

How the results depend on the processing

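The numbers of genes called depended on the processing more than the direction of single genes. Without the filter on dim probes, 2194 genes were called lower than the mean of the others and 403 higher and 224 lower than each, and 410 showed a day difference. With the slide as a block these were 2057, 408 and 147, and without the day term, which pairs the 4 arrays of a day and is the replicate block of the model, 2330, 561 and 223. A log2 difference of at least 1 left 1430 higher and 711 lower, and margins of 0.5 and 1 left 872 and 437 genes above and 348 and 61 below. The methods' analysis of variance with Tukey's test at the usual threshold called 502 and 312 genes against each, and 77 and 22 after Benjamini-Hochberg. Leaving out 1 array gave 1250 to 3276 genes called higher and 871 to 3922 called lower than the mean, 276 to 752 and 85 to 471 against each, and 2675 to 3606 above and 3412 to 4866 below all 3. The ranges above and below all 3 come from a looser rule and do not measure stability. A day without its TFR array was not counted, and a day without another array was compared with the remaining cell types only. Leaving out an array could thus not lower these counts. The highest values, 3606 above and 4866 below, are the counts of d12 alone and of d25 alone. Causes of changed numbers were not tested beyond what the settings change, that is the number of genes, arrays or residual degrees of freedom.

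Of 139 named genes, 95 kept their call and sign under each of the 17 or 18 alternatives that were scored for them. Under at least 1 of these, 44 lost the call, and 0 reversed. The limit on the size of the log2 difference was not among these alternatives. Penk, Nrn1, Ccr6 and Cxcr3 were among the 95. Probes close to background limit the smaller levels, since values at the floor have no order.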
